A study of Mus musculus with 12 samples.

Results

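The genes described here are 38 genes of the ATF4 stress response, of amino acid and one-carbon synthesis, of amino acid transport and of tRNA charging, matched by symbol in the deposited tables, which list 54532 genes. They fall into 6 stress transcription factors, 7 regulators of the stress response, 10 enzymes of amino acid and one-carbon synthesis, 5 amino acid transporters and 10 cytosolic aminoacyl-tRNA synthetases. Their symbols occupied 39 rows, because *Ddit3* has a second entry of 105 bases that held no read in any library. Of the 38 genes, 32 reached a mean of 1 FPKM (fragments scaled to transcript length and library size) over all libraries and were tested, as were 11550 genes in all.

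RNA-seq was measured in primary CD8+ T cells, taken from C57BL/6 mice (spleen and peripheral lymph nodes) and activated with antibodies against CD3 and CD28. The cells received either a non-targeting siRNA (siNTC, labelled wild type) or an siRNA against *Creb1* (siCreb1, labelled *Creb1* knockdown), and were then kept for 24 h with vehicle (DMSO) or with *trans*-vaccenic acid (TVA), a ruminant-derived dietary fatty acid. The 4 groups (siNTC, siNTC plus TVA, siCreb1 and siCreb1 plus TVA) held 3 libraries each. The study asked with these libraries which effects of TVA need CREB, so the comparisons are TVA against vehicle in each kind of cell, siCreb1 against siNTC at each treatment, and the difference between both TVA effects.

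ATF4 is translated when the translation factor eIF2α is phosphorylated, as happens on amino acid shortage, endoplasmic reticulum stress or haem deficiency, and it then switches on genes for amino acid synthesis, uptake and tRNA charging. Activated T cells are known to use this programme while they grow, since dividing cells need serine, one-carbon units and essential amino acids. CREB is the transcription factor that acts after cyclic AMP and protein kinase A, and it belongs to the same family of basic leucine zipper proteins as ATF4.

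The DNA letters that both factors read are shown first, because the genes were brought together as a response to ATF4 and the knockdown was aimed at CREB. Of the 38 genes, 30 have a RefSeq promoter window on GRCm38.p6, each of 300 bases from 250 before the start site to 50 after it. *Aldh1l2*, *Cth*, *Slc7a5*, *Slc1a5*, *Cars*, *Lars*, *Nars* and *Wars* have none there. The core of the C/EBP-ATF response element, TGATGNAA or TTNCATCA on the other strand, was present in windows of 11 of the 30 genes (36.7%), compared with 4.51% of the 27025 genes with a window and 2.66% of the 7998 of these that were tested. Because the genes were chosen as a response to ATF4, a high share is partly built into the list. The 30 genes also include some that were not tested. The full cyclic AMP response element (CRE), TGACGTCA, was present in 1 of the 30 (3.33%), *Ppp1r15a*, compared with 2.03% of all genes and 3.84% of the tested genes with a window. The shorter CRE letters TGACG or CGTCA, which also lie within the full element, were in 12 of the 30, compared with 23.0% of all genes and 37.9% of the tested genes with a window. A match of letters is a description of the window and not a measured binding site. *Atf3*, *Chac1* and *Vldlr* also hold the core but were too low to be tested, and their stretches are not printed. The stretches below carry the response element core (first 7 lines) or the full CRE (last line) in capitals, each printed 5′ to 3′ on the strand of the gene.
Asns (chr6:7693214-7693243, minus strand): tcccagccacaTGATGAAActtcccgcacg
Trib3 (chr2:152344028-152344057, minus strand): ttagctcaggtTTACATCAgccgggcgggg
Pck2 (chr14:55540152-55540181, plus strand): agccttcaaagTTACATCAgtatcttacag
Gars (chr6:55037960-55037989, plus strand): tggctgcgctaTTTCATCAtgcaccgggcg
Iars (chr13:49682126-49682155, plus strand): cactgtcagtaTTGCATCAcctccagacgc
Tars (chr15:11399655-11399684, minus strand): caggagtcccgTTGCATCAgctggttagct
Yars (chr4:129189895-129189924, plus strand): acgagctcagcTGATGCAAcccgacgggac
Ppp1r15a (chr7:45526262-45526291, minus strand): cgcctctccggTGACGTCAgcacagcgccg

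**Figure D1:**
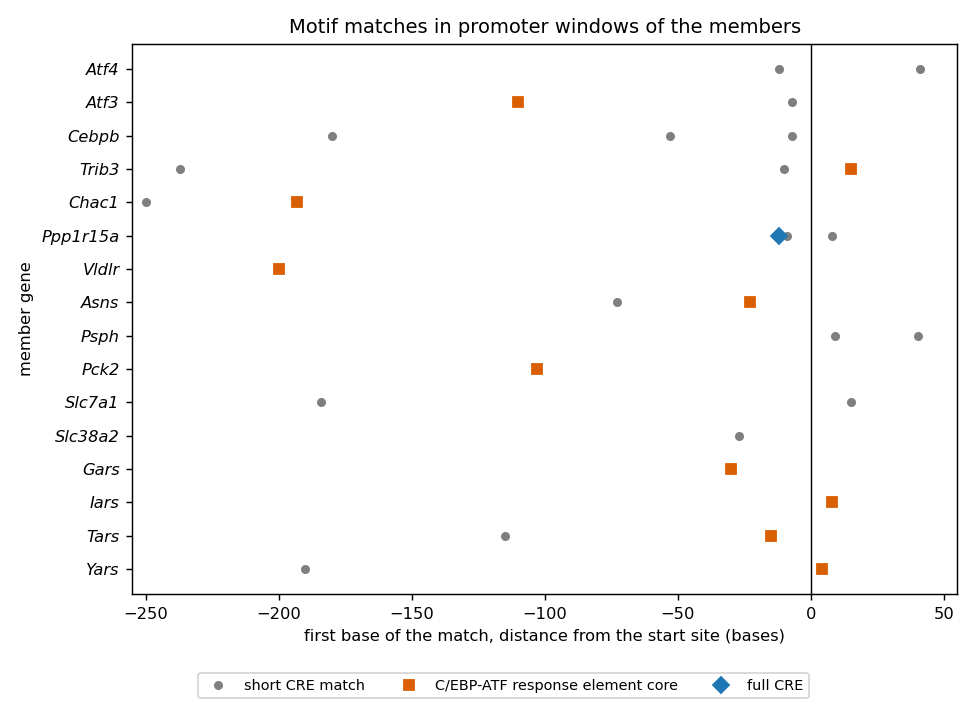
Position of motif matches in the RefSeq promoter windows of the member genes; the x axis gives the distance of the first base of a match from the start site in bases, and each row is a gene with at least 1 match, and *Aars* is not drawn. The core of the C/EBP-ATF response element lies within 50 bases of the start site in *Asns*, *Trib3*, *Gars*, *Iars*, *Tars* and *Yars*, and the full CRE lies in *Ppp1r15a* alone among the 30 genes with a window.

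The libraries held between 16660234 and 24602484 reads, recovered from FPKM and gene length. *Creb1* was at 10.3 to 12.4 FPKM in the 6 siNTC libraries and at 1.17 to 1.81 FPKM in the 6 siCreb1 libraries, and these ranges do not overlap, so the siRNA left part of the transcript. All 6 CD8 T cell markers (*Cd8a*, *Cd8b1*, *Cd3e*, *Cd3d*, *Cd3g* and *Lck*) were above 1 FPKM, and their sum was 2160 to 2180 FPKM in siNTC cells, 2140 to 2160 in siNTC plus TVA, 2030 to 2050 in siCreb1 and 2050 to 2080 in siCreb1 plus TVA cells. The B cell markers *Cd79b* and *Cd79a* had means of 9.63 and 1.61 FPKM over the 12 libraries. Summed markers of B cells were at 9.45 to 14.2 FPKM, the highest of the lists other than CD8 T cells. Those of myeloid cells were at 4.93 to 8.88 FPKM, of CD4 and regulatory T cells at 4.81 to 6.20, of NK cells at 3.83 to 5.24 and of erythroid cells at 0 to 0.494, with *Hba-a2* and *Hbb-bs* at 0 in every library. Nothing in the labels says that replicates came from separate mice or cultures, so p-values measure the spread between these samples, which may be technical.

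Levels of the 32 tested genes spanned a wide range, and 20 of them had a mean of at least 10 FPKM. The highest mean levels were those of *Slc1a5*, a glutamine transporter (69.1 FPKM), *Ddit4*, an inhibitor of mTORC1 (63.8 FPKM), and *Phgdh*, which opens the serine synthesis pathway (63.0 FPKM). *Shmt2* (48.8 FPKM), *Slc38a2* (47.9 FPKM) and *Atf4* itself (45.8 FPKM) followed. *Asns*, asparagine synthetase (2.54 FPKM), *Pck2*, mitochondrial phosphoenolpyruvate carboxykinase (2.49 FPKM), and *Stc2*, a secreted glycoprotein (1.27 FPKM), were lowest among the tested genes. Most of these genes varied little: the ratio of the highest to the lowest of the 12 libraries had a median of 1.24 and ranged from 1.08 for *Slc3a2* to 3.06 for *Cebpb*. The heat map of all libraries shows the few genes that moved against this even background.

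Another 6 genes were too low to be tested. *Atf3*, a stress-induced transcription factor, had 16 to 27 reads in siNTC, 10 to 12 in siNTC plus TVA, 20 to 38 in siCreb1 and 11 to 21 in siCreb1 plus TVA libraries. *Chac1*, which degrades glutathione, had 2 to 22 reads per library, *Vldlr*, a lipoprotein receptor, 10 to 36, and *Gpt2*, mitochondrial alanine aminotransferase, 21 to 46. *Aldh1l2*, a mitochondrial folate enzyme, had 0 to 8 reads and *Cth*, which makes cysteine from cystathionine, 1 to 8. At this depth no difference in these genes was tested.

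**Figure D2:**
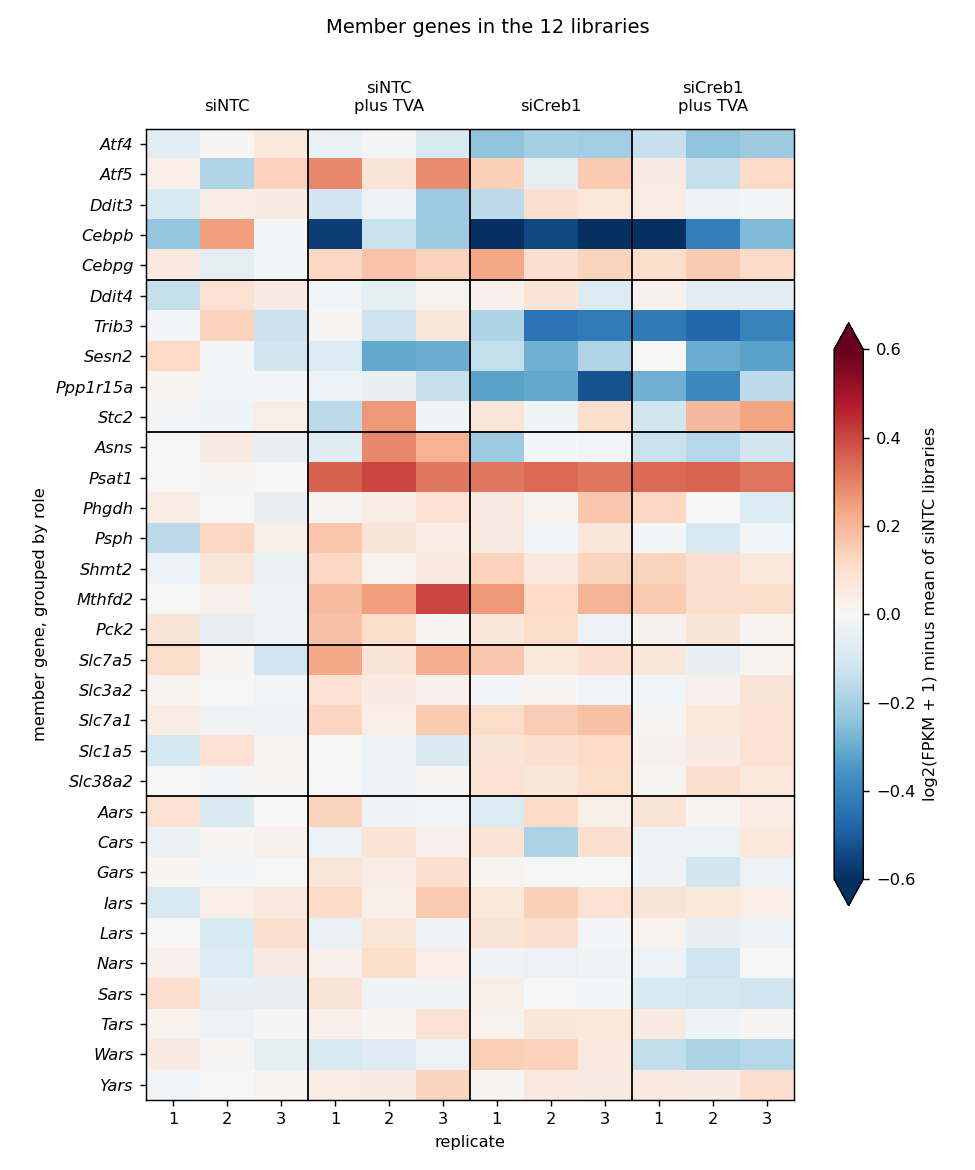
Heat map of the 32 tested member genes (rows, grouped by role) in the 12 libraries (columns); colour gives log2(FPKM + 1) minus the mean of the siNTC libraries, and colours saturate at 0.6 in either direction. *Psat1* is above and *Cebpb* below the siNTC mean in all 9 other libraries, *Trib3* is below it in all 6 siCreb1 libraries, and most other rows stay pale.

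In siNTC cells, TVA raised 2 of the 32 tested genes, *Psat1* and *Mthfd2*, both enzymes of the route from glycolysis through serine to mitochondrial one-carbon units. Of all tested genes 4.49% were higher and 2.88% lower, so 2 of 32 is close to the share of all tested genes that were higher. The median difference of the 32 genes was 0.05 on the log2(FPKM + 1) scale, compared with -0.01 over all tested genes. Positive differences numbered 22 of the 32, compared with 5510 of all 11550 tested genes. No stress factor was called.

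*Psat1* (ENSMUSG00000024640, chr19:15904678-15947337 on GRCm38), phosphoserine aminotransferase, was measured at 12.5, 12.5 and 12.4 FPKM in siNTC and at 16.2, 16.8 and 15.8 FPKM in siNTC plus TVA libraries. All TVA libraries lay above all siNTC libraries. The mean was 12.5 ± 0.041 FPKM without and 16.3 ± 0.505 FPKM with TVA (SD, n = 3), a ratio of 1.30. On the log2(FPKM + 1) scale the difference was 0.36 ± 0.03 (SE; limma, Benjamini-Hochberg adjusted p = 3.52e-05 over all tested genes).

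*Mthfd2* (ENSMUSG00000005667, chr6:83305691-83325908), a mitochondrial folate dehydrogenase that T cells induce on activation, was measured at 14.0, 14.3 and 13.7 FPKM in siNTC and 16.1, 16.9 and 18.8 FPKM in siNTC plus TVA libraries. These ranges do not overlap either. The ratio of the means was 1.23, and the log2 difference was 0.28 ± 0.05 (SE; limma, adjusted p = 0.00903). Both calls held without each of the 12 libraries in turn. *Mthfd2* missed the threshold when only the 6 libraries compared were fitted (limma, adjusted p = 0.0625).

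The neighbours of both enzymes had smaller differences. *Phgdh* and *Psph*, the first and last enzymes of serine synthesis, had log2 differences of 0.05 and 0.10, and *Shmt2*, which splits serine into glycine and a one-carbon unit in mitochondria, had 0.07. All 7 tested enzymes of synthesis had a positive difference (median 0.10), under FPKM, TPM, quantile normalization and limma-voom on the recovered reads alike. *Asns* was at 2.56, 2.69 and 2.45 FPKM in siNTC and at 2.39, 3.36 and 3.13 FPKM in siNTC plus TVA libraries, and the groups overlap (log2 difference 0.14, 95% interval -0.07 to 0.35; limma, adjusted p = 0.439). *Psph* lies across from *Cct6a*, which had 3450 reads on average against its own 942, and whether reads were counted by strand is not given in the sources used here.

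The transcripts of the ATF4 factor and of its stress partners showed no difference past the threshold with TVA. *Atf4* (ENSMUSG00000042406, chr15:80255184-80257541) was at 47.4, 49.8 and 51.7 FPKM in siNTC and 48.2, 49.2 and 46.5 FPKM in siNTC plus TVA libraries, which overlap. Its log2 difference was -0.05, with a 95% interval from -0.13 to 0.04 (limma, adjusted p = 0.536). *Ddit3*, which encodes the pro-apoptotic factor CHOP, was at 9.53, 10.6 and 10.6 FPKM in siNTC and 9.38, 10.0 and 8.67 FPKM in siNTC plus TVA libraries. The groups overlap here too (log2 difference -0.12, 95% interval -0.28 to 0.04; limma, adjusted p = 0.383), and *Ddit3* lies opposite *Mars*, which had 1220 reads on average against its own 358.

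At an unadjusted p under 0.05 from limma, 7 of the 32 genes were higher and 1 lower, while 10.5% of all tested genes were higher and 10.5% lower at this threshold. Besides both called genes, these were *Cebpg*, a dimer partner of ATF4 (log2 difference 0.14, adjusted p = 0.0656), *Slc7a5*, the large neutral amino acid transporter LAT1 (0.17), *Slc7a1*, which carries arginine and lysine (0.11), *Iars* (0.10), *Gars* (0.07) and, in the other direction, *Sesn2*, a sensor of leucine (-0.23). With limma-voom *Slc7a5* was called as well, which made 3 higher and 0 lower. Of all tested genes limma-voom called 1015 and limma 852, in either direction.

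In siCreb1 cells the same treatment called 1 of the 32 genes, *Wars*, which was lower with TVA. None was higher with limma or with limma-voom. Of all tested genes 0.416% were lower and 0.121% higher with limma. In either direction limma called 62 of all tested genes and limma-voom 155. At an unadjusted p under 0.05 from limma, 0 of the 32 were higher and 2 lower. Of all tested genes 4.19% were higher and 5.39% lower at this threshold, so these counts are near those shares. The median difference of the 32 genes was -0.03, compared with 0.00 over all tested genes (-0.00123). Negative differences numbered 23 of the 32, compared with 5864 of all 11550 tested genes.

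*Wars* (ENSMUSG00000021266, chr12:108860030-108894174) encodes tryptophanyl-tRNA synthetase, which is also known to be induced by interferon-γ. It was at 36.7, 36.4 and 34.4 FPKM in siCreb1 and at 29.6, 28.8 and 29.2 FPKM in siCreb1 plus TVA libraries, so every TVA library lay below every siCreb1 library. The ratio of the means was 0.816, and the log2 difference was -0.28 ± 0.03 (SE; limma, adjusted p = 0.00304). The call held without each of the 12 libraries. In siNTC cells *Wars* was at 34.2, 33.2 and 31.7 FPKM without and 30.9, 31.2 and 32.2 FPKM with TVA, which overlap (log2 difference -0.07; limma, adjusted p = 0.289).

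*Psat1* was at 15.8, 16.1 and 15.8 FPKM in siCreb1 and at 16.0, 16.2 and 15.9 FPKM in siCreb1 plus TVA libraries, and these groups overlap. Its log2 difference with TVA was 0.01, with a 95% interval from -0.05 to 0.07 (limma, adjusted p = 0.951). *Mthfd2* was at 17.0, 15.3 and 16.3 FPKM in siCreb1 and at 15.7, 15.1 and 15.2 FPKM in siCreb1 plus TVA libraries, again overlapping (log2 difference -0.07, 95% interval -0.19 to 0.04; limma, adjusted p = 0.729). *Sars*, seryl-tRNA synthetase, was the other gene with an unadjusted p under 0.05 (log2 difference -0.11; limma, adjusted p = 0.424).

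**Figure D3:**
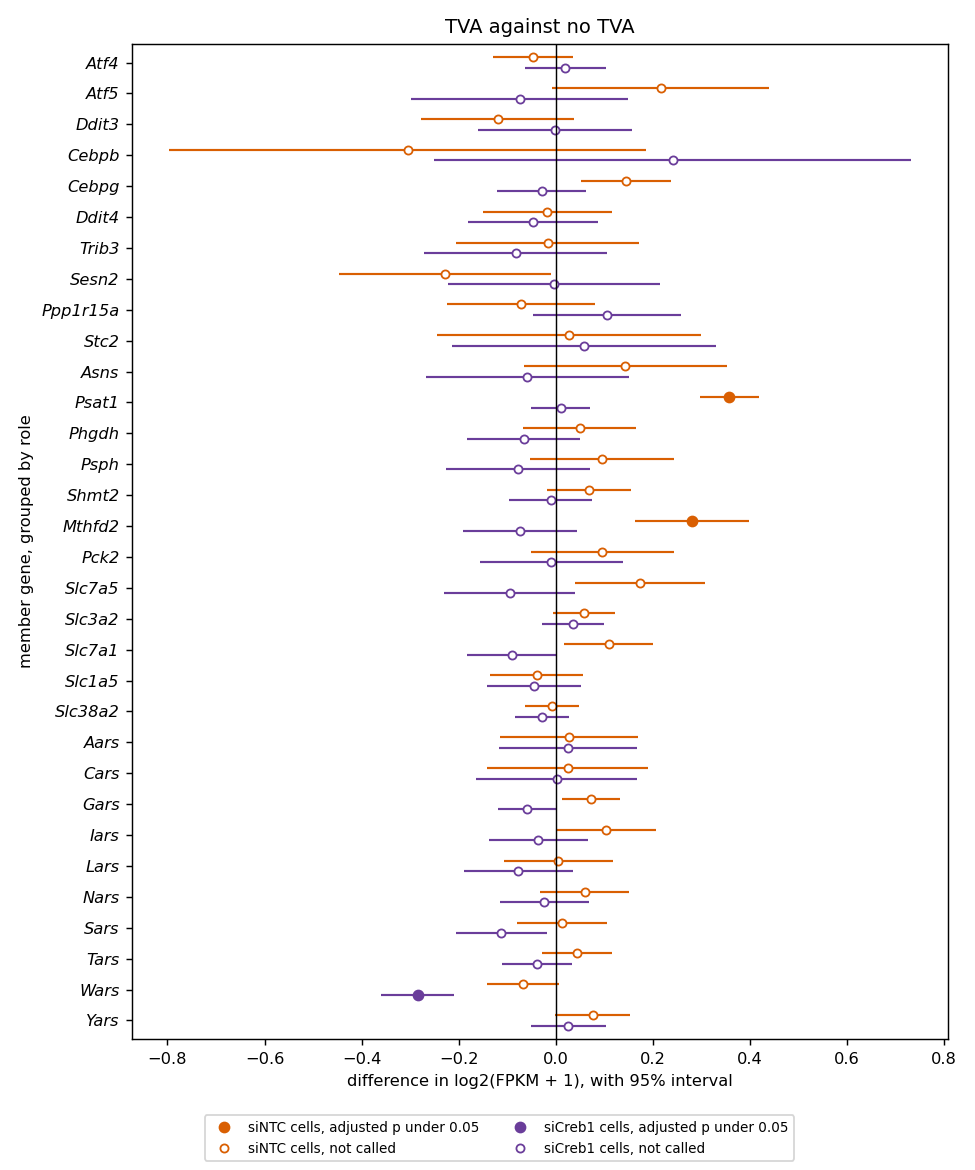
Difference with TVA of the 32 tested member genes in siNTC cells and in siCreb1 cells; the x axis is the difference in log2(FPKM + 1), points are estimates, lines their 95% intervals, and filled points have an adjusted p under 0.05. *Psat1* (0.36) and *Mthfd2* (0.28) stand out in siNTC cells and *Wars* (-0.28) in siCreb1 cells, while most other intervals include 0.

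The effect of TVA differed between both kinds of cells for 3 of the 32 genes, tested directly as the interaction of TVA and siCreb1. All 3 were lower, meaning that the TVA difference was smaller or more negative in siCreb1 than in siNTC cells. Of all tested genes 1.78% were lower and 0.459% higher in this test. The interaction was -0.35 ± 0.04 for *Psat1* (SE; limma, adjusted p = 0.00152), -0.36 ± 0.08 for *Mthfd2* (limma, adjusted p = 0.0381) and -0.22 ± 0.05 for *Wars* (limma, adjusted p = 0.0441).

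These 3 interactions have different levels behind them. For *Psat1* the 3 siNTC libraries lay below the 9 others, which all lay between 15.8 and 16.8 FPKM. For *Mthfd2* the siNTC libraries were also the lowest 3 of the 12. For *Wars*, in contrast, the siCreb1 libraries were the highest 3 and the siCreb1 plus TVA libraries the lowest 3.

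The *Psat1* interaction held without each of the 12 libraries (limma, adjusted p 0.00313 to 0.00718). That of *Mthfd2* was lost without any 1 of 9 libraries, all but siNTC plus TVA replicates 1 and 3 and siCreb1 replicate 2 (adjusted p 0.0612 to 0.0946), and that of *Wars* without any 1 of 10, all but siNTC replicate 1 and siCreb1 replicate 3 (adjusted p 0.0675 to 0.110). Both were also lost with TPM (adjusted p = 0.0962 for *Mthfd2* and 0.178 for *Wars*) and without a filter on low values (0.0947 and 0.0926), while limma-voom called 5 genes, adding *Slc7a1* and *Slc7a5*.

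By role, the interaction was negative for all 7 tested enzymes of synthesis (median -0.17), for all 5 transporters (median -0.02) and for all 10 synthetases (median -0.08), while it was negative for 7, 4 and 9 of them with TPM and for 7, 4 and 10 with quantile normalization. It was mixed among the 5 stress factors, of which 3 were positive, and the 5 stress regulators, of which 3 were positive. Over the 32 genes 26 interactions were negative and the median was -0.08, compared with 0.00 over all tested genes (0.00196). Of all 11550 tested genes 5693 had a negative interaction. All these interactions use the same 12 libraries, so their signs are not independent of each other. At an unadjusted p under 0.05 the negative ones numbered 7 and the positive ones 0 (limma), compared with 8.2% and 6.15% of all tested genes. The 7 included *Slc7a5* (-0.27), *Slc7a1* (-0.20), *Cebpg* (-0.17) and *Gars* (-0.13), none of which passed the adjusted threshold.

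The summed level of the 10 synthetases was 217 ± 4.77 FPKM in siNTC cells, 222.5 ± 0.927 in siNTC plus TVA, 222.4 ± 2.28 in siCreb1 and 209 ± 4.65 FPKM in siCreb1 plus TVA cells (SD, n = 3). On this scale the siCreb1 plus TVA libraries, at 204 to 213 FPKM, lay below all siNTC plus TVA and all siCreb1 libraries. They overlapped the siNTC range of 212 to 221 FPKM. The sums were taken in FPKM only. Against siNTC plus TVA cells, 9 of the 10 synthetases were lower under FPKM but 4 under TPM, so that separation may depend on the scaling. Against siCreb1 cells, 7 of the 10 were lower under both. *Wars* made up much of that fall, with means of 35.8 FPKM in siCreb1 and 29.2 FPKM in siCreb1 plus TVA cells.

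Without TVA, siCreb1 changed 10 of the 32 tested genes, 4 of them lower and 6 higher. The lower genes were the stress genes *Cebpb*, *Ppp1r15a*, *Trib3* and *Atf4*, and the higher genes were *Psat1*, *Mthfd2*, *Cebpg*, *Slc7a1*, *Wars* and *Slc38a2*. Of all tested genes 7.21% were lower and 6.52% higher. The median difference of the 32 genes was 0.05, compared with 0.00 over all tested genes (-0.00111). This comparison shares its siNTC libraries with that of TVA in siNTC cells, so the 2 sets of calls are not independent. Beside all these differences the summed CD8 T cell markers were lower in siCreb1 cells, as given above, but not every marker was: the means without TVA were 934 FPKM in siNTC and 835 FPKM in siCreb1 cells for *Cd8b1*, and 417 and 443 FPKM for *Cd8a*, with *Cd3e* (94.7 and 101 FPKM) also higher in mean and *Cd3d*, *Cd3g* and *Lck* lower. In bulk libraries fewer cells of a type and less RNA per cell cannot be told apart; the part of the marker difference in these results was not tested.

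*Atf4* was at 41.7, 43.1 and 42.8 FPKM in siCreb1 libraries, below all 3 siNTC libraries (47.4 to 51.7 FPKM). The ratio of the means was 0.857, and the log2 difference was -0.22 ± 0.04 (SE; limma, adjusted p = 0.0044). *Ppp1r15a* (ENSMUSG00000040435, chr7:45522916-45526268), which encodes GADD34 and directs the dephosphorylation of eIF2α, is the gene whose promoter window holds the full CRE shown above. It was at 8.90, 8.77 and 8.75 FPKM in siNTC and 6.84, 6.93 and 5.82 FPKM in siCreb1 libraries, and the groups do not overlap. Its ratio of means was 0.742 and its log2 difference -0.38 ± 0.07 (SE; limma, adjusted p = 0.00517). *Atf4*, *Ppp1r15a* and *Psat1* were called without each of the 12 libraries.

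*Trib3* (ENSMUSG00000032715, chr2:152337422-152344032), a pseudokinase induced by ATF4 and CHOP, was at 5.78, 6.52 and 5.24 FPKM in siNTC and at 5.00, 4.02 and 4.11 FPKM in siCreb1 libraries. The groups do not overlap, and the log2 difference was -0.35 ± 0.09 (SE; limma, adjusted p = 0.0222). It was lost without siNTC replicate 1 or 2 or siCreb1 replicate 2 or 3 (adjusted p 0.0526 to 0.0779) and with TPM (adjusted p = 0.0553). *Cebpb* (ENSMUSG00000056501, chr2:167688915-167690418), a C/EBP factor that dimerizes with ATF4, was at 6.06, 8.83 and 7.22 FPKM in siNTC and 3.59, 4.67 and 2.89 FPKM in siCreb1 libraries, without overlap. The ratio of the means was 0.504 and the log2 difference -0.83 ± 0.22 (SE; limma, adjusted p = 0.0318), the largest among the 32 genes in this comparison. It was lost without siNTC replicate 2 or 3 or siCreb1 replicate 1 or 3 (adjusted p 0.0705 to 0.108), and *Tmem189* on the other strand had 1020 reads on average against 165 of *Cebpb*.

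*Psat1*, at 15.8 to 16.1 FPKM in siCreb1 libraries, was above all siNTC libraries (12.4 to 12.5 FPKM). The log2 difference was 0.33 ± 0.03 (SE; limma, adjusted p = 8.7e-05). *Mthfd2*, at 15.3 to 17.0 FPKM in siCreb1 libraries, also lay above all siNTC libraries (log2 difference 0.19; limma, adjusted p = 0.0345), and its call was lost without any 1 siNTC library or siCreb1 replicate 1 or 3 (adjusted p 0.0606 to 0.119). *Shmt2*, another enzyme of this route, had a log2 difference of 0.11 (limma, adjusted p = 0.0873).

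*Cebpg* was at 10.2, 9.31 and 9.64 FPKM in siNTC and 11.6, 10.4 and 10.7 FPKM in siCreb1 libraries, without overlap (log2 difference 0.15 ± 0.04, SE; limma, adjusted p = 0.0334). It was lost without siNTC replicate 2 or 3 or siCreb1 replicate 1 or 3 (adjusted p 0.0668 to 0.113). In siNTC plus TVA libraries it was at 10.7, 11.0 and 10.8 FPKM and in siCreb1 plus TVA libraries at 10.5, 10.9 and 10.6 FPKM. *Cebpg* thus moved opposite to *Cebpb* in the knockdown without TVA.

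*Slc7a1* was at 8.22, 7.81 and 7.76 FPKM in siNTC and 8.62, 8.90 and 9.07 FPKM in siCreb1 libraries, without overlap (log2 difference 0.14; limma, adjusted p = 0.0434). In the TVA groups it was at 8.77, 8.18 and 8.94 FPKM (siNTC) and 7.96, 8.34 and 8.49 FPKM (siCreb1). *Slc38a2*, the transporter SNAT2 that is induced by amino acid shortage, was at 46.5, 46.5 and 46.9 FPKM in siNTC and 49.6, 49.1 and 50.3 FPKM in siCreb1 libraries, a small difference without overlap (log2 difference 0.09; limma, adjusted p = 0.0371). In the TVA groups *Slc38a2* was at 46.7, 45.6 and 46.9 FPKM (siNTC) and 47.2, 50.2 and 48.7 FPKM (siCreb1), and the siCreb1 plus TVA libraries again lay above.

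*Wars* was higher by 0.11 in siCreb1 cells on the log2 scale (limma, adjusted p = 0.0467), with all 3 siCreb1 libraries above the siNTC libraries. The calls of these last 3 genes rest on small margins: *Slc38a2* was lost without any 1 siNTC or siCreb1 library or siCreb1 plus TVA replicate 3 (adjusted p 0.0547 to 0.116), *Slc7a1* without any 1 of 8 libraries, all but siNTC replicate 1, siNTC plus TVA replicates 2 and 3 and siCreb1 plus TVA replicate 1 (adjusted p 0.0539 to 0.128), and *Wars* without any 1 of 10, all but siNTC replicate 1 and siCreb1 replicate 3 (adjusted p 0.0537 to 0.148). Without a filter on low values *Atf4*, *Ppp1r15a* and *Psat1* were the 3 genes called, and when only the 6 libraries compared were fitted these and *Cebpb* were. Only 4 of the 32 genes were called without siNTC replicate 2 or 3 or siCreb1 replicate 1 or 3, and 6 without siCreb1 replicate 2.

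**Figure D4:**
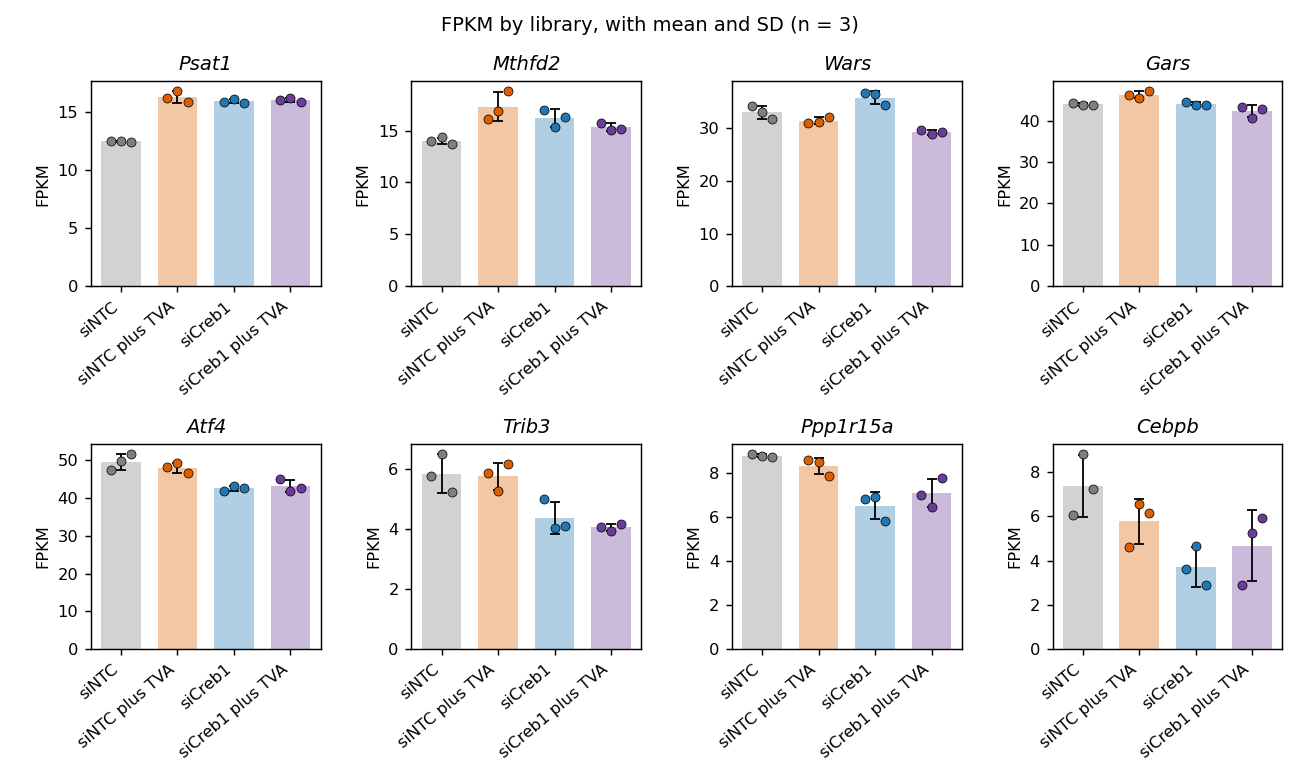
FPKM of 8 called member genes by library; bars are group means, error bars the SD (n = 3), and points single libraries, with each axis starting at 0. *Psat1* is lowest in the siNTC libraries (12.4 to 12.5 FPKM), *Atf4*, *Trib3* and *Ppp1r15a* are lower in both siCreb1 groups than in siNTC cells, and *Wars* is lowest in siCreb1 plus TVA cells (28.8 to 29.6 FPKM).

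With TVA present, siCreb1 lowered 3 of the 32 genes, *Trib3*, *Atf4* and *Gars*. None was higher with limma. Of all tested genes 5.51% were lower and 4.64% higher. At an unadjusted p under 0.05 from limma, 1 of the 32 was higher, *Slc38a2*, and 10 were lower. Of all tested genes 11.6% were higher and 14.6% lower at this threshold. With limma-voom 2 were higher, *Slc1a5* and *Slc38a2*, while limma-voom called 1536 of all tested genes and limma 1172. *Lyz2*, a myeloid marker, was higher in siCreb1 plus TVA than in siNTC plus TVA cells (0.40 on the log2 scale), and the summed myeloid markers were 7.73 to 8.88 FPKM against 4.93 to 6.39 FPKM; their part in these results was not tested.

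*Trib3* was at 5.86, 5.26 and 6.15 FPKM in siNTC plus TVA and 4.08, 3.93 and 4.18 FPKM in siCreb1 plus TVA libraries, without overlap. The log2 difference was -0.41 ± 0.09 (SE; limma, adjusted p = 0.0143), and it missed the threshold without siCreb1 plus TVA replicate 2 (adjusted p = 0.0523), where *Gars* was the 1 gene called. *Atf4* was at 45.0, 41.8 and 42.6 FPKM in siCreb1 plus TVA libraries, below all siNTC plus TVA libraries (46.5 to 49.2 FPKM). Its log2 difference was -0.15 ± 0.04 (SE; limma, adjusted p = 0.0315), and it was lost without siNTC plus TVA replicate 1 or 2 or siCreb1 plus TVA replicate 2 or 3 (adjusted p 0.0813 to 0.109), without a filter on low values (0.0742), with only the libraries compared (0.0582), without a trend (0.0549), with quantile normalization (-0.11, adjusted p = 0.106) and with TPM (-0.10, adjusted p = 0.226).

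*Gars* (ENSMUSG00000029777, chr6:55038007-55079500), glycyl-tRNA synthetase, was at 46.2, 45.4 and 47.2 FPKM in siNTC plus TVA and 43.3, 40.6 and 42.9 FPKM in siCreb1 plus TVA libraries, which do not overlap. Its level without TVA was 44.3, 43.7 and 43.8 FPKM in siNTC and 44.5, 43.8 and 43.8 FPKM in siCreb1 libraries, which do overlap. The log2 difference with TVA was -0.13 ± 0.03 (SE; limma, adjusted p = 0.016), and it was lost without siNTC plus TVA replicate 3 (adjusted p = 0.055), with only the libraries compared (0.0638), with quantile normalization (-0.09, adjusted p = 0.103) and with TPM (-0.08, adjusted p = 0.318).

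*Ppp1r15a* was at 8.59, 8.51 and 7.90 FPKM in siNTC plus TVA and 7.02, 6.49 and 7.78 FPKM in siCreb1 plus TVA libraries. These do not overlap, but the difference of -0.21 did not pass the threshold (95% interval -0.36 to -0.05; limma, adjusted p = 0.085). *Cebpb* was at 4.60, 6.55 and 6.14 FPKM in siNTC plus TVA and 2.88, 5.23 and 5.90 FPKM in siCreb1 plus TVA libraries, which overlap (log2 difference -0.29, 95% interval -0.78 to 0.21). Neither *Ppp1r15a* (interaction 0.18; limma, adjusted p = 0.452) nor *Cebpb* (interaction 0.55; limma, adjusted p = 0.477) was shown to differ between the treatments.

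*Asns* was at 2.06, 2.55 and 2.53 FPKM in siCreb1 and 2.25, 2.16 and 2.30 FPKM in siCreb1 plus TVA libraries. The last group lay below all siNTC plus TVA libraries (log2 difference -0.28; limma, adjusted p = 0.0861), and without TVA siCreb1 and siNTC overlapped. *Ddit3* was at 9.07, 11.0 and 10.7 FPKM in siCreb1 and 10.6, 9.98 and 10.1 FPKM in siCreb1 plus TVA libraries, so it overlapped its control in all 4 pairwise comparisons. Its log2 difference in siCreb1 against siNTC without TVA was 0.00, with a 95% interval from -0.16 to 0.16 (limma, adjusted p = 0.999).

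Of the 32 differences with TVA present, 25 were negative under FPKM but 15 under TPM, which also moved the median of all tested genes from -0.01 to 0.04. Under FPKM 6237 of all 11550 tested genes were negative. Among the 10 synthetases 9 were negative under FPKM and 4 under TPM. The sign of the differences in this comparison therefore depends on the scaling. The median of the 32 genes lay below that of all tested genes under both (-0.04 against -0.01 for FPKM, 0.01 against 0.04 for TPM).

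**Figure D5:**
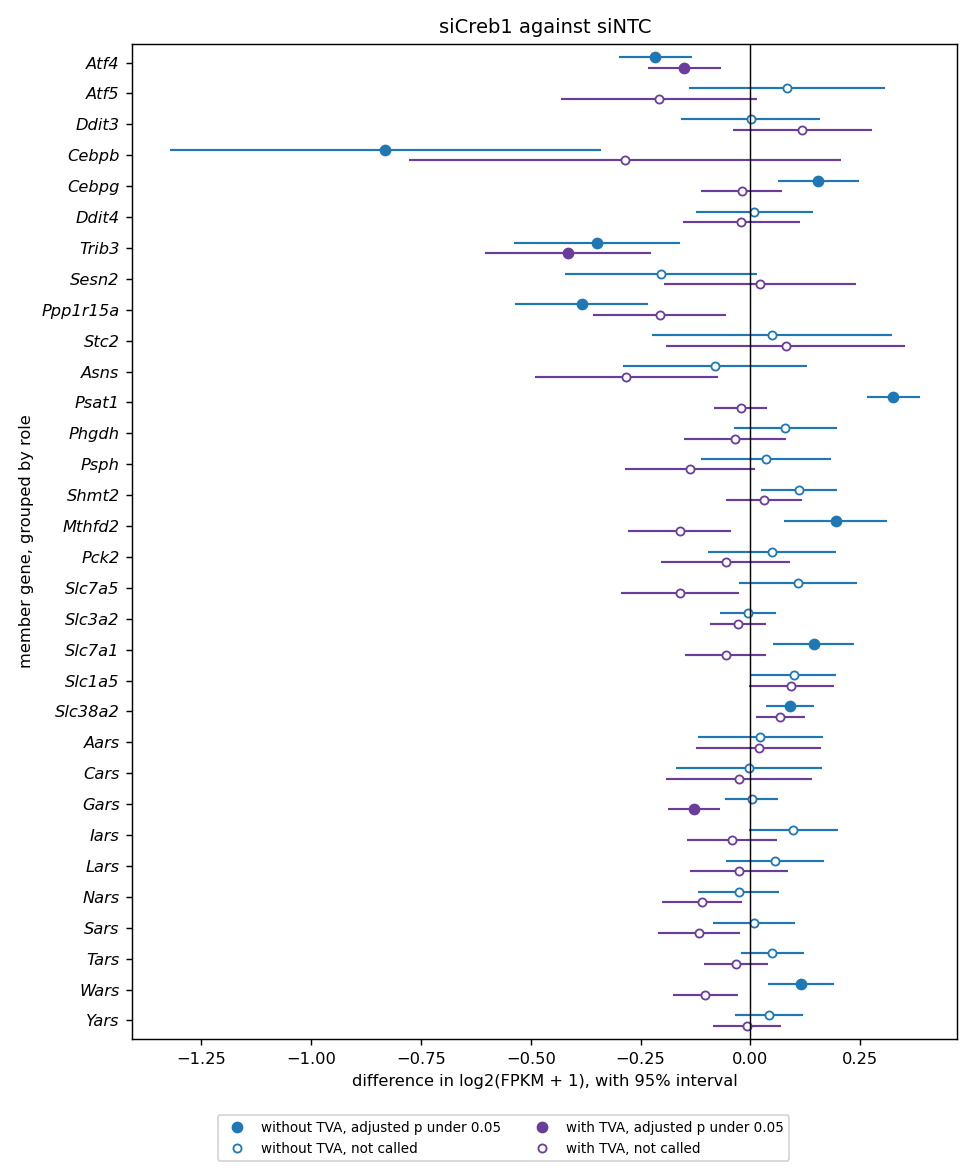
Difference between siCreb1 and siNTC cells of the 32 tested member genes, without and with TVA; the x axis is the difference in log2(FPKM + 1), points are estimates, lines their 95% intervals, and filled points have an adjusted p under 0.05. *Trib3* and *Atf4* are filled and negative at both treatments, and *Psat1* (0.33) is filled without TVA only, where 10 genes are called.

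Of the 32 tested genes 21 were called in none of the 5 comparisons. Among the stress genes these were *Atf5*, *Ddit3*, *Ddit4*, *Sesn2* and *Stc2*. *Atf5* had the least certain levels of these, since *Nup62* on the other strand had 1640 reads on average against its own 197. Among the enzymes they were *Asns*, *Phgdh*, *Psph*, *Shmt2* and *Pck2*. Among the transporters they were *Slc7a5* and *Slc3a2*, the light and heavy chains of one exchanger, and *Slc1a5*, and among the synthetases all but *Gars* and *Wars*. *Slc3a2* was the steadiest gene of all, at 25.0 to 27.1 FPKM over the 12 libraries.

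The 6 further lists, chosen for their relation to these genes, give the surroundings. Of 13 other cytosolic synthetases and complex subunits, *Aimp1*, a scaffold of the multi-synthetase complex, was lower in siCreb1 cells without TVA (-0.18; limma, adjusted p = 0.0109) and with TVA (-0.15; adjusted p = 0.0311, lost without siNTC plus TVA or siCreb1 plus TVA replicate 1 or 2 at adjusted p 0.0799 to 0.108), and *Vars* was higher without TVA (0.12; adjusted p = 0.0127). Of 17 mitochondrial synthetases, *Tars2* alone was called, higher in siCreb1 with TVA (0.22; limma, adjusted p = 0.0155, lost without siNTC plus TVA or siCreb1 plus TVA replicate 3 at adjusted p 0.0516 to 0.055). In siCreb1 cells without TVA 7.21% of all tested genes were lower and 6.52% higher, and with TVA 5.51% and 4.64%.

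Of 13 kinases and regulators of eIF2α, *Eif2ak3*, the endoplasmic reticulum stress kinase PERK, was lower in siCreb1 cells without TVA (-0.16; limma, adjusted p = 0.0246), and *Eif2b1*, a subunit of the eIF2B exchange factor, was lower in siCreb1 cells with TVA (-0.18; adjusted p = 0.0355). Lower levels were called for 7.21% of all tested genes without and 5.51% with TVA. *Eif2ak3* was lost without siNTC or siCreb1 replicate 2 or 3 (adjusted p 0.0512 to 0.0888), and *Eif2b1* without siNTC plus TVA or siCreb1 plus TVA replicate 1 or 3 or siCreb1 replicate 3 (adjusted p 0.0507 to 0.115). With TPM the lower levels of *Aimp1* (adjusted p = 0.077) and *Eif2ak3* (adjusted p = 0.121) in siCreb1 cells without TVA missed the threshold.

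Of 20 other genes listed as targets of ATF4 or CHOP or as relatives of such targets, 12 were tested. TVA lowered 3 of them in siNTC cells, *Bbc3*, which encodes the pro-apoptotic PUMA (-0.29; limma, adjusted p = 0.0139), *Sqstm1*, the autophagy receptor p62 (-0.21; adjusted p = 0.00502), and *Sesn1*, a relative of *Sesn2* (-0.13; adjusted p = 0.0291). The same 3 were lower in siCreb1 than in siNTC cells without TVA (-0.27, -0.15 and -0.14), a comparison with the same siNTC libraries. Of all tested genes 2.88% were lower in the first of these comparisons and 7.21% in the second. *Bbc3* was at 27.7, 32.6 and 28.8 FPKM in siNTC cells, 24.2, 24.6 and 23.4 in siNTC plus TVA, 24.9, 23.9 and 24.1 in siCreb1 and 21.5, 19.3 and 21.8 FPKM in siCreb1 plus TVA libraries, so that its siNTC libraries were the highest 3 of the 12. *Bbc3* with TVA was lost without siNTC plus TVA replicate 3 (adjusted p = 0.055), *Sesn1* with TVA without siNTC or siNTC plus TVA replicate 2 or 3 (0.0571 to 0.102), and *Sqstm1* in siCreb1 cells without siNTC replicate 1 or any 1 siCreb1 library (0.0516 to 0.0651). With TPM *Sqstm1* (adjusted p = 0.121) and *Sesn1* (adjusted p = 0.196) in siCreb1 cells were lost as well. *Aldh18a1*, which starts proline synthesis, was lower in siCreb1 cells with TVA (-0.16; limma, adjusted p = 0.0462), a call lost without any 1 of 9 libraries, which include all 6 of that comparison (adjusted p 0.0507 to 0.139).

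Of 15 other folate and one-carbon genes, 11 were tested. *Tyms*, thymidylate synthase, had 4.07, 3.99 and 4.00 FPKM in siNTC cells, 5.96, 5.43 and 5.78 in siNTC plus TVA, 5.27, 5.14 and 5.45 in siCreb1 and 4.95, 5.64 and 6.0 FPKM in siCreb1 plus TVA libraries. Its siNTC libraries were the lowest 3 of the 12. *Tyms* rose with TVA in siNTC cells (0.42; limma, adjusted p = 0.00144) and was higher in siCreb1 than in siNTC cells without TVA (0.32; adjusted p = 0.00555), and its interaction was -0.37 (adjusted p = 0.0497). The interaction was lost without any 1 of 11 libraries, all but siCreb1 plus TVA replicate 3 (limma, adjusted p 0.0636 to 0.111). *Shmt1*, the cytosolic relative of *Shmt2*, was higher in siCreb1 cells without TVA (0.16; limma, adjusted p = 0.0287, lost without siNTC replicate 1 or 3 or any 1 siCreb1 library at 0.0584 to 0.0954). Over all tested genes 4.49% were higher with TVA in siNTC cells, 6.52% higher in siCreb1 cells without TVA and 1.78% lower in the interaction.

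Of 14 other amino acid transporters, 8 were tested. *Slc6a6*, which carries taurine, was lower with TVA in siNTC cells (-0.11; limma, adjusted p = 0.0483), and *Slc38a1* was higher in siCreb1 cells without TVA (0.12; adjusted p = 0.0461). The lysosomal transporters *Slc36a1* (0.27; limma, adjusted p = 0.0311) and *Slc38a9* (0.23; adjusted p = 0.0245) were higher in siCreb1 cells with TVA. Over all tested genes 2.88% were lower with TVA in siNTC cells. Higher levels in siCreb1 cells were called for 6.52% without and 4.64% with TVA. All 4 transporter calls were lost on leaving out single libraries. For *Slc6a6* these were 11, all but siCreb1 replicate 3 (adjusted p 0.0524 to 0.140), and for *Slc38a1* 11, all but siNTC replicate 1 (0.0545 to 0.133). For *Slc36a1* they were siNTC plus TVA replicate 1 or 2 or any 1 siCreb1 plus TVA library (0.0568 to 0.103), and for *Slc38a9* siNTC plus TVA replicate 2 or 3 or any 1 siCreb1 plus TVA library (0.0581 to 0.0826).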

How the data were processed

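RNA of 12 libraries was prepared with an RNeasy kit and a SMARTER mRNA-Seq kit. The authors deposited FPKM values, 1 file per library with gene positions and lengths. The aligner, the counting program and the annotation release are not given in the sources used here, and the submitters' processing notes name GRCm38 and mm10. Of the 38 genes 36 have the same position in GENCODE vM21. FPKM times gene length was a whole multiple of 1 read for at least 99.962% of genes (tolerance 0.01 reads). Between 16660234 and 24602484 reads per library were recovered. The squared difference between replicates was on average 3.68 to 5.50 times the counting variance, over all but genes of very few reads. Averaged over these genes, library spread thus exceeded counting error, which need not hold for members with few reads.

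Genes with a mean of at least 1 FPKM entered limma 3.58.1 (R 4.3.3) as log2(FPKM + 1) (lmFit, contrasts.fit, eBayes with a trend), with 1 coefficient per group and no block. Fold changes on this scale understate those of low genes. P-values were Benjamini-Hochberg adjusted over all 11550 tested genes with a threshold of 0.05, and no p was adjusted over a list. On simulated data for TVA in siNTC cells, 83.5% of genes with a log2 change of 0.5 were called (81 of 97). Of those with a change of 1, 96 of 100 were called, and 12 of the unchanged genes were called as well, among 11552 genes. Every simulated gene had the same dispersion, unlike real genes. Most member differences given here are smaller than 0.5, so this rate does not describe them. Groups and replicate numbers come from the labels, and same-numbered libraries did not deviate together (correlations -0.06 to 0.06 over 18 pairs). The alternatives were a pseudocount of 0.1, no filter, a mean of at least 5 FPKM, quantile normalization, TPM, the replicate number as a block, no trend, limma-voom on recovered reads, fits of only the libraries compared, and leaving out each library. Applying them to the further lists was decided after seeing the data.

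The 38 genes and the further lists were chosen with earlier results of these data known. Called members, *Atf4*, *Ddit3*, *Asns* and at most 6 called genes of each further list are given with values. Python 3.11.15 and matplotlib 3.10.9 made the figures. Some results for single genes and sites are not reported here.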

Additional observations from a re-analysis of the deposited data

Results flagged for a closer look

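The effect of TVA differed between siCreb1 and siNTC cells, by the test of the interaction itself, for 3 genes. The TVA difference in siCreb1 minus that in siNTC cells was -0.35 for *Psat1* (limma, adjusted p = 0.00152), -0.36 for *Mthfd2* (adjusted p = 0.0381) and -0.22 for *Wars* (adjusted p = 0.0441) on the log2(FPKM + 1) scale. For *Psat1* and *Mthfd2* the siNTC libraries were the lowest 3 of the 12, and for *Wars* the siCreb1 plus TVA libraries were. The call of *Psat1* held under all 20 alternatives, while that of *Mthfd2* was lost under 13 of 20 (limma, adjusted p up to 0.0962) and that of *Wars* under 15 of 20 (adjusted p up to 0.178), among them TPM, the replicate block, no filter on low values and no trend. When each library was left out in turn, 1 to 2 members were called.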

How the results depend on the processing

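Of the 19 calls of a member in a comparison, 0 turned direction under the 20 or 21 alternatives each, and 6 stayed past the threshold under all of them: *Psat1* with TVA in siNTC cells, in siCreb1 cells without TVA and in the interaction, *Wars* with TVA in siCreb1 cells, and *Atf4* and *Ppp1r15a* in siCreb1 cells without TVA. The count of called members for TVA in siNTC cells became 1 when only the libraries compared were fitted. For siCreb1 without TVA it became 3 without a filter on low values and 4 with only the libraries compared. For siCreb1 with TVA it became 1 with quantile normalization, TPM or only the libraries compared, and 5 with limma-voom. For the interaction it became 1 without a filter, with TPM or without a trend, and 5 with limma-voom. Leaving out each library gave 2 to 3, 1 to 1, 4 to 9, 1 to 4 and 1 to 2 called members in the 5 comparisons in the order of the text's TVA, siCreb1 and interaction results. With the replicate number as a block, which does not pair these libraries, the counts were 3, 1, 5, 3 and 1. The 3 for TVA in siNTC cells added *Atf5*, and the 3 for siCreb1 with TVA held *Atf5*, *Gars* and *Trib3* but not *Atf4* (adjusted p = 0.0623). The median of the members moved by more than the spread of libraries in 12 of 104 cases, among them TPM for siCreb1 with TVA (from -0.04 to 0.01). Over all tested genes the number called was 852 for TVA in siNTC cells (368 with only the libraries compared, 556 with TPM, 563 without a filter), 62 for TVA in siCreb1 cells (34 to 39 with the block, TPM or only the libraries compared, 155 with limma-voom), 1586 for siCreb1 without TVA (992 without a filter, 817 with only the libraries compared), 1172 with TVA (683 without a filter, 740 with TPM) and 259 for the interaction (152 with TPM, 446 with limma-voom). The causes were not tested. No fit of only the libraries compared exists for the interaction, which uses all 12.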
